A study of Mus musculus with 4 samples.

Results

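The genes that make cholesterol and fatty acids, with the regulators of the sterol response and a pair of cholesterol exporters, were compared between Klf13 knockout and wild-type naive CD8 T cells. The genes were listed by function: 8 of the mevalonate branch, 11 of the sterol branch, 6 around the SREBP transcription factors, 8 of fatty acid synthesis and 2 of cholesterol efflux. Of these 35 genes, 34 were measured among 19938 genes in all, each through the probe set that names it alone and has the highest mean over the arrays. Acat2, the listed thiolase that makes acetoacetyl-CoA in the cytosol, was not analysed here, and Sc4mol, the older symbol of Msmo1, was counted once.

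The cells were sorted by flow cytometry from spleens of BALB/c mice, and each of the 4 samples had its own 1-colour Affymetrix array. The Klf13 KO group had 2 samples and the wild-type group, of the same strain, had 2. The age and sex of the mice, the part of Klf13 that was removed and the number of mice behind a sample are not stated in the labels, and neither group is labelled as treated. The deposited values are log2 levels, so a difference of group means is a log2 fold change, given below as knockout minus wild type.

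Cholesterol is built from acetyl-CoA. The mevalonate branch makes the isoprenoid units that are also used to anchor small GTPases in membranes, and the sterol branch joins and closes them into the ring system and then trims it to cholesterol. SREBP transcription factors switch these genes on when membrane sterol is low: SCAP escorts them from the endoplasmic reticulum to the Golgi, where they are cut free, and INSIG proteins hold SCAP back when sterol is plentiful. Liver X receptors answer sterol excess by switching on exporters such as ABCA1. In T cells, lipid synthesis of this kind is known to go up when a resting cell is activated and builds membrane.

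Promoter sequence was examined because most enzymes of the mevalonate and sterol branches lay on the same side of the wild type. RefSeq promoters (GRCm38.p6) were at hand for 26 of the 34 genes, 5 of them with several starts, and the 250 bases before each start were searched on both strands for short motifs. The letters CCAAT, which nuclear factor Y binds, were present in 15 of 15 mevalonate and sterol genes (6 and 9), in 4 of 5 regulators, in 1 of 5 fatty acid genes and in 0 of 1 efflux gene, against 38.8% of the 15614 measured genes with such a window. The GC box GGGCGG, which SP and KLF factors bind, was present in 13 of those 15 genes and in 5 of 5 regulators. It was also in 2 of 5 fatty acid genes and in 1 of 1 efflux gene (Abca1), against 49.3% of measured genes. The CACCC-type letters CCACCC were in 4 of the 15 genes (34.3% of measured genes) and the E box CACGTG in 3 of them (8.11%). TCACNCCAC, a strict form of the sterol response element, was in the window of Hmgcs1 alone, against 1.20% of measured genes. None of the other motifs fits within the strict element. These are matches of letters and not binding sites, and most genes were counted over 1 window while some had several. The shares of measured genes include genes at low levels, and no share was taken over genes at levels like those listed. No window was at hand for Fdps, Fdft1 or Sqle.

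The windows of 6 genes are printed from RefSeq, in the direction of the gene and ending at the base before its start, with CCAAT (or ATTGG, its other strand) and the sterol element in capitals. They are the mevalonate gene that passed the test (Idi1), a mevalonate gene whose level was nearly the same in both groups (Hmgcs1), 2 sterol genes (Msmo1 and Tm7sf2), the regulator with the largest difference (Insig1), and the exporter that lay on the other side (Abca1).
Idi1 (chr13:8885356-8885605, plus strand): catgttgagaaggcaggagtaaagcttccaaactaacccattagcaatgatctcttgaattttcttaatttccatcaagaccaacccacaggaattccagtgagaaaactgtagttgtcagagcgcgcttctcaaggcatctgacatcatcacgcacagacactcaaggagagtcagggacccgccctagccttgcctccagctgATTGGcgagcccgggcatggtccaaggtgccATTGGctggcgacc
Hmgcs1 (chr13:119690101-119690350, plus strand): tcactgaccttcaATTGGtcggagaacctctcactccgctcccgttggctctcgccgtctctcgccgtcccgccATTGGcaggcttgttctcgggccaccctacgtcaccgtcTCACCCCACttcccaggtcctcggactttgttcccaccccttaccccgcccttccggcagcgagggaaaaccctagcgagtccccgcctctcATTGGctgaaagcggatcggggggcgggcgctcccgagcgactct
Msmo1 (chr8:64733579-64733828, minus strand): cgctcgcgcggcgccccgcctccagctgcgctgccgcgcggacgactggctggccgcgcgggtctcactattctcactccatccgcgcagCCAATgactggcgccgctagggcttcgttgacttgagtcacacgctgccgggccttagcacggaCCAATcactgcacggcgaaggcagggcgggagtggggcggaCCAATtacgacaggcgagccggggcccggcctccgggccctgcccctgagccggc
Tm7sf2 (chr19:6067851-6068100, minus strand): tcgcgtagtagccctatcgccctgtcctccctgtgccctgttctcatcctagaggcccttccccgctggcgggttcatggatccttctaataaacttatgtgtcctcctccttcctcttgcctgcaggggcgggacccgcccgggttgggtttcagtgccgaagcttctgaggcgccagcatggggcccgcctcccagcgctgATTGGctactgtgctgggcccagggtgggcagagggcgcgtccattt
Insig1 (chr5:28071162-28071411, plus strand): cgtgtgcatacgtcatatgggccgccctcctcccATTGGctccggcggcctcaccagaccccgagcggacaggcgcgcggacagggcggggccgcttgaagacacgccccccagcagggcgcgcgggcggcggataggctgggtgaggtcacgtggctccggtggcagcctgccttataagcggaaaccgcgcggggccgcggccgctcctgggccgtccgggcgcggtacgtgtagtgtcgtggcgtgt
Abca1 (chr4:53159896-53160145, minus strand): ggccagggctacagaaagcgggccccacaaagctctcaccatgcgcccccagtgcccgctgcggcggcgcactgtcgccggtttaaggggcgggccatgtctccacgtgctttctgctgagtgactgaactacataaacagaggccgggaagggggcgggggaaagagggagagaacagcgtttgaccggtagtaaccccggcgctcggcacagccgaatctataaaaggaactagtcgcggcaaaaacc
The 2 capital blocks of Idi1 lie within its last 45 bases, Msmo1 has 3 such blocks, Hmgcs1 has 3 beside the sterol element, Tm7sf2 and Insig1 have 1 each, and Abca1 has none.

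As a check of the labels, Klf13 was read at 5.46 and 5.43 in the knockout arrays and at 7.01 and 7.15 in the wild-type arrays, 3.10-fold lower in the knockout (limma adjusted p = 3.75e-05). Over all genes, 2.25% passed limma at an adjusted p under 0.05, with 210 lower and 238 higher in the knockout. The higher genes were thus 53.1% of the calls, but 21.8% after each array was centred on its median. Fold changes also varied with level: the median was 0.02 over all genes and -0.06 over the 9969 genes with the higher mean levels, to which all 34 lipid genes belong. Knockout array 1 was the lower of the knockout arrays in 79.9% of those brighter genes, and their mean distance from the wild type was -0.10 in knockout array 1 and 0.001 in knockout array 2. Whether each array held another animal is not said in the labels, so the p-values rest on a spread that may be technical. Genotype could not reach significance by an exact permutation of the arrays alone, where 2 against 2 cannot go below a two-sided p of 0.333.

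**Figure D1:**
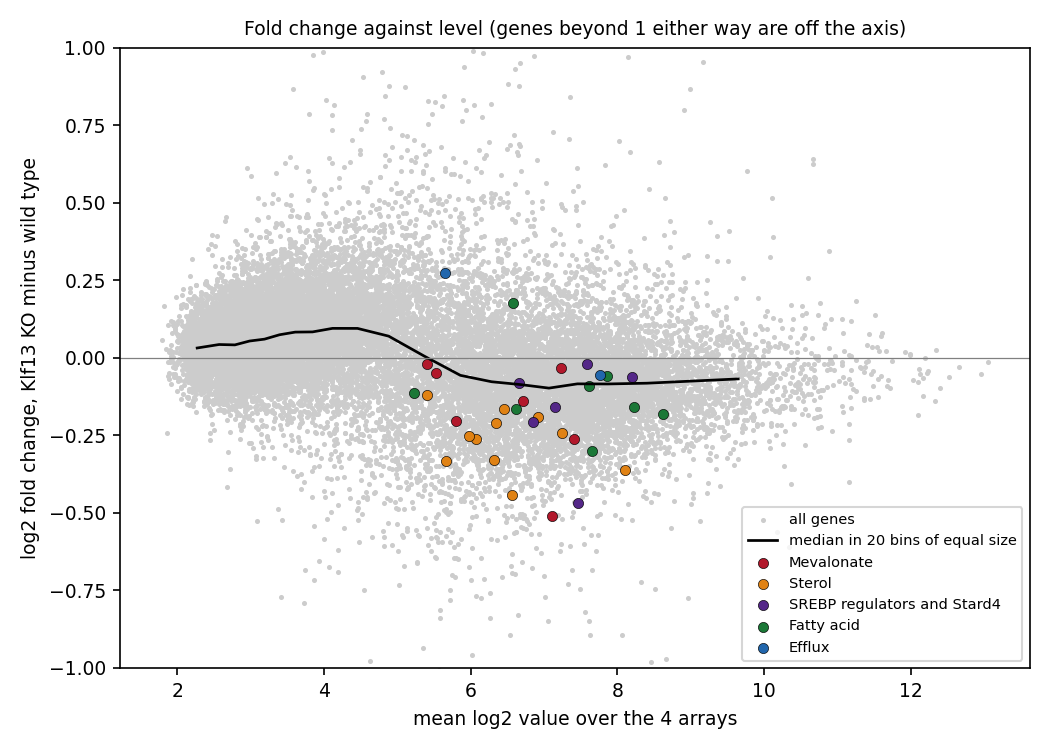
Log2 fold change (knockout minus wild type) of each gene against its mean log2 level over the 4 arrays; grey points are all genes, the black line joins medians of 20 bins of equal size, and coloured points are the lipid genes by branch. The black line runs above 0 among dim genes and below it among brighter ones, and most coloured points lie under it, while Abca1 and Elovl6 lie farthest above it.

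Most of the lipid genes lay a little lower in the knockout, and the sterol branch lay lowest. Of the 34 genes, 32 had a fold change below 0, where 45.9% of all genes and 64.8% of the brighter genes did. That count was 24 without knockout array 1 (48.0% of all genes) and 27 after a further quantile normalization (50.8% of all genes). In 21 genes the knockout arrays were both under the wild-type pair, and in 2 both were above it. The share of all genes with both knockout arrays lower was 23.2%, and of the brighter genes 38.8%; with both higher, it was 24.4% and 17%. By limma, 1 lipid gene passed the adjusted threshold, Idi1, and 0 passed in the other direction (1.05% of all genes passed as lower and 1.19% as higher). At an unadjusted p under 0.05, 11 lipid genes were lower and 1 was higher, where 8.75% of all genes and 16.1% of the brighter genes were lower and 7.85% and 7.42% were higher. The median log2 fold change was -0.17 over the 34 genes, -0.14 over the mevalonate branch (7 genes), -0.25 over the sterol branch (11 genes), -0.12 over the SREBP regulators with Stard4 (6 genes) and -0.14 over the fatty acid branch (8 genes). Knockout array 1 was the lower of its pair in 32 of the 34 genes. Knockout array 2 alone lay below both wild-type arrays in 23 of the 34 genes, against 42.9% of the brighter genes, and the median over the 34 genes from that array alone was -0.10, against -0.01 for the brighter genes.

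**Figure D2:**
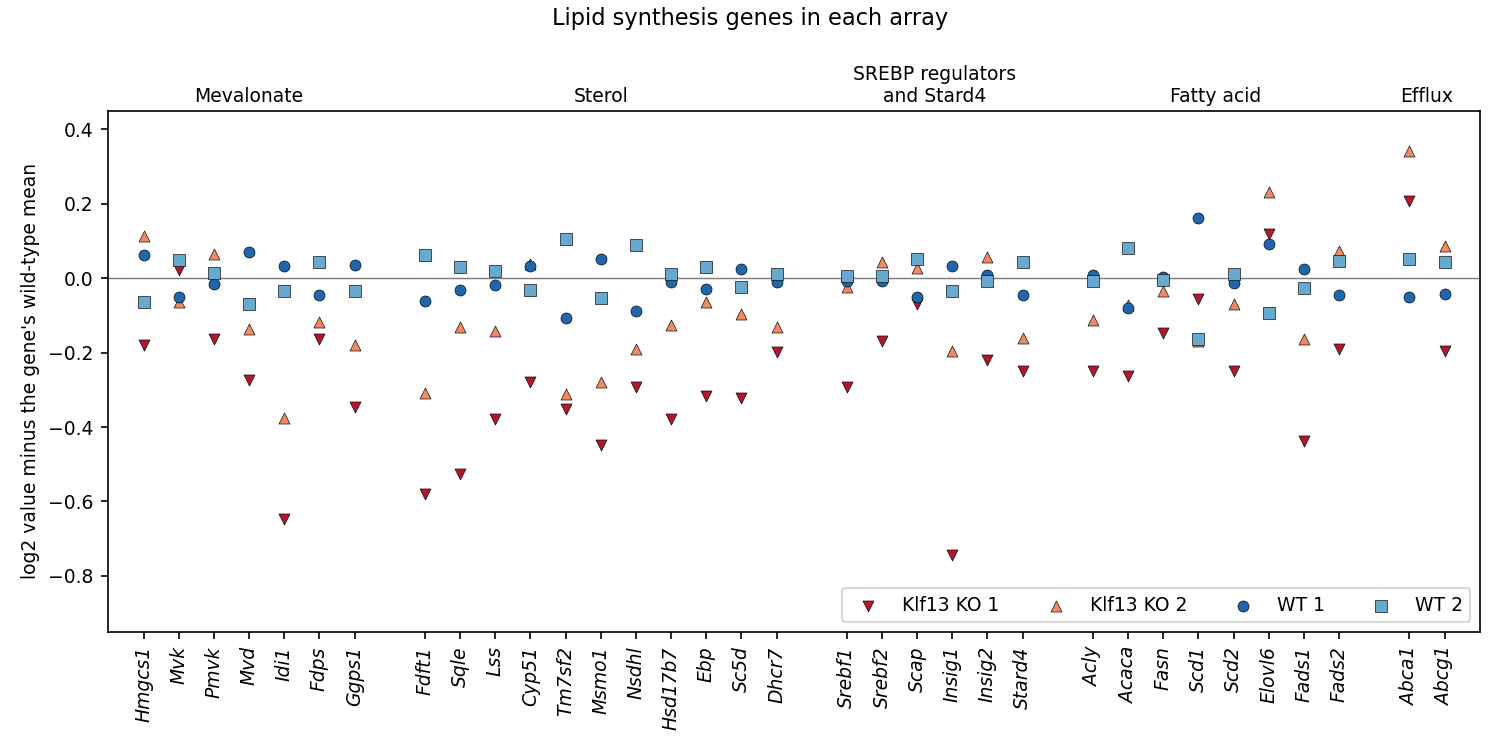
Log2 value of each lipid gene in each array minus that gene's mean over the wild-type arrays, grouped by branch; red triangles are the knockout arrays and blue symbols the wild-type arrays. In the sterol branch 10 of 11 genes have both knockout arrays under both wild-type arrays, as do 38.8% of the brighter genes. Knockout array 1 is usually the lowest point, and Abca1 and Elovl6 lie above.

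In the mevalonate branch all 7 fold changes were below 0 (as were 64.8% of the brighter genes). In 4 of the genes both knockout arrays were lower, as in 38.8% of the brighter genes. Idi1, the isomerase that interconverts the 2 building blocks of all isoprenoids, was the gene that fell. It was read at 6.72 and 6.99 in the knockout arrays and at 7.40 and 7.33 in the wild-type arrays, 1.43-fold lower (-0.51, SE 0.11, limma adjusted p = 0.0436). The groups did not overlap, and the gap was wider in knockout array 1. A second, dimmer probe set of Idi1 differed by -0.52. The call was close to the threshold: the adjusted p ranged from 4.6e-04 to 0.235 over the alternatives, and the fold change was -0.38 without knockout array 1, -0.48 without wild-type array 1 and -0.55 without wild-type array 2, none of which passed. Ggps1, which makes the geranylgeranyl chain that is attached to Rab GTPases, was read at 7.19 and 7.36 in the knockout and at 7.58 and 7.51 in the wild type, and its groups did not overlap either (-0.26, SE 0.10, limma adjusted p = 0.225).

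The other genes of that branch gave smaller differences. Hmgcs1, the synthase that makes HMG-CoA, was read at 7.07 and 7.36 in the knockout and at 7.31 and 7.19 in the wild type, so the wild-type arrays lay between the knockout arrays (-0.03, with a 95% interval of -0.29 to 0.22). The kinases Mvk and Pmvk, which phosphorylate mevalonate in turn, differed by -0.02 and -0.05 with overlapping groups. The decarboxylase Mvd differed by -0.20 (limma adjusted p = 0.351) and the farnesyl diphosphate synthase Fdps by -0.14 (limma adjusted p = 0.501), both with groups that did not overlap. The signs of Hmgcs1, Mvk and Pmvk turned when 1 array was left out, and that of Hmgcs1 also after a further quantile normalization.

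The sterol branch was the most uniform: all 11 fold changes lay between -0.44 and -0.12. In 10 of the 11 genes both knockout arrays were lower (38.8% of the brighter genes). Centring each array moved every fold change down by the same amount (69.1% of all genes were then below 0), so it could not turn these signs. After quantile normalization all 11 stayed below 0, where 50.8% of all genes were. Without knockout array 1 it was 10 of 11, where 48.0% of all genes were below 0. None passed limma after adjustment over all genes. At an unadjusted p under 0.05, 7 of 11 were lower, where 8.75% of all genes and 16.1% of the brighter genes were. Fdft1, squalene synthase, which commits farnesyl units to sterols, was read at 6.21 and 6.47 in the knockout and at 6.72 and 6.85 in the wild type (-0.44, SE 0.11, limma adjusted p = 0.0795). It passed among the brighter genes alone, after centring each array, with a variance trend and with a block for the replicate number. Those settings gave 606, 1088, 831 and 1187 calls over all genes, against 448 in the main fit. It did not pass with its probe sets averaged, with all probe sets tested singly or after quantile normalization. Without knockout array 1 the fold change was -0.31, and without wild-type array 2 it was -0.38. A second probe set of Fdft1 differed by -0.25. Msmo1, the oxidase that starts removal of the methyl groups at carbon 4 of the ring, was read at 7.831 and 7.999 against 8.33 and 8.23 (-0.36, SE 0.10, limma adjusted p = 0.111). Tm7sf2, a sterol reductase, was read at 5.48 and 5.52 against 5.72 and 5.93 (-0.33, SE 0.10, limma adjusted p = 0.143). For Tm7sf2 the knockout arrays lay close together, so its difference did not rest on knockout array 1.

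The other sterol enzymes gave smaller differences of the same sign. Sqle, the epoxidase that prepares squalene for ring closure, was read at 5.95 and 6.34 in the knockout and 6.44 and 6.51 in the wild type (-0.33, SE 0.13). Lss, which closes the ring to lanosterol, was read at 5.82 and 6.06 against 6.18 and 6.22 (-0.26, SE 0.10). In both, the distance of knockout array 1 from the wild type was more than that of knockout array 2. Nsdhl, which removes a carboxyl group from the ring, was read at 7.07 and 7.17 against 7.27 and 7.45 (-0.24, SE 0.10), and Hsd17b7, the keto-reductase of the same demethylation, at 5.73 and 5.98 against 6.09 and 6.11 (-0.25, SE 0.11). The isomerase Ebp (-0.19), the desaturase Sc5d (-0.21) and the last reductase Dhcr7 (-0.16) had unadjusted p over 0.05, though their groups did not overlap. Without knockout array 1, Ebp differed by -0.064, Sc5d by -0.097 and Dhcr7 by -0.13. Cyp51, the lanosterol demethylase, was the exception in overlap, at 5.19 and 5.51 against 5.50 and 5.44 (-0.12, 95% interval -0.38 to 0.14), and its sign turned without knockout array 1.

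**Figure D3:**
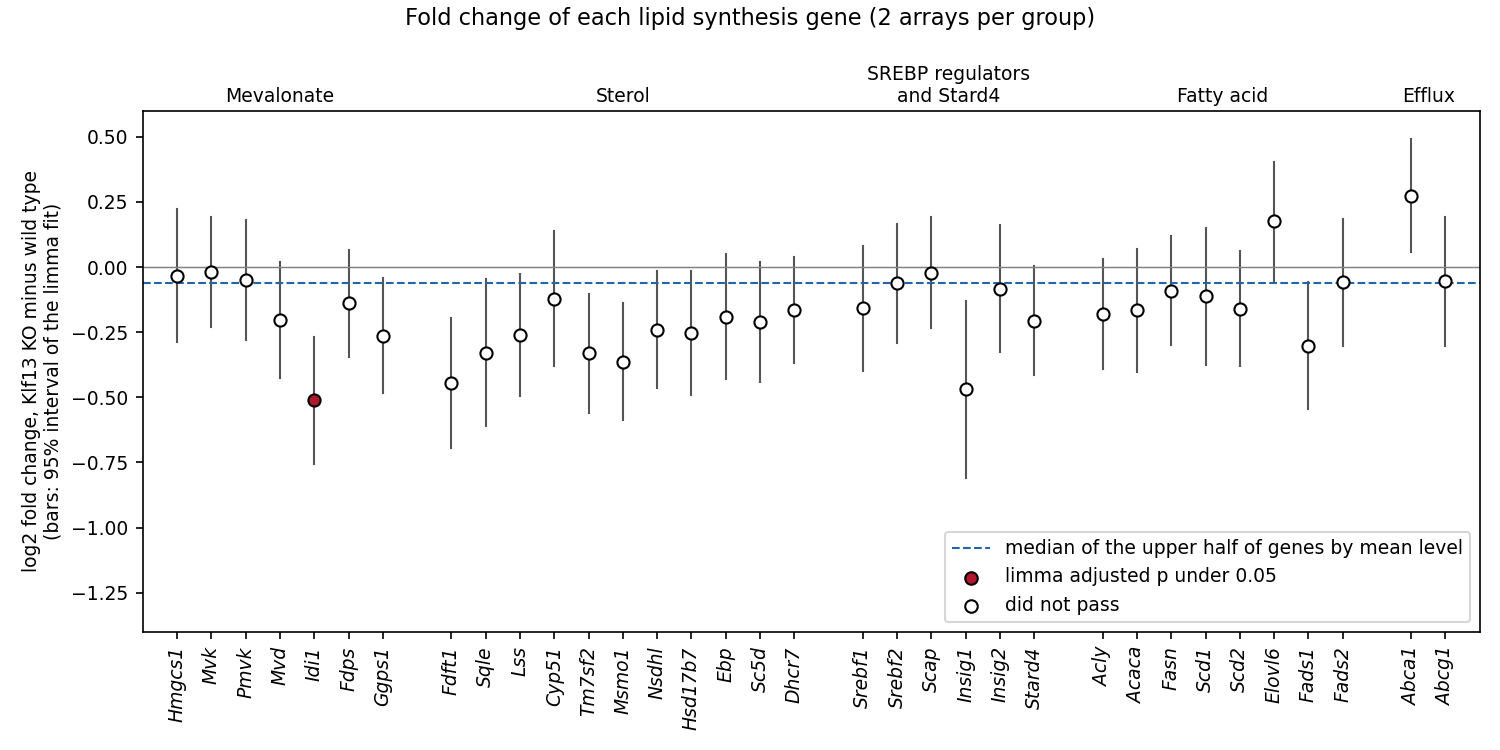
Log2 fold change of each lipid gene, knockout minus wild type, with the 95% interval of the limma fit (2 arrays per group); the filled point passed the adjusted threshold, and the dashed line is the median of the 9969 brighter genes (-0.06). Idi1 is the filled point at -0.51, the sterol genes lie between -0.44 and -0.12, and Elovl6 and Abca1 lie above 0.

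Among the regulators, Srebf2, which encodes the SREBP that mainly drives cholesterol genes, was read at 8.06 and 8.28 in the knockout and at 8.23 and 8.24 in the wild type, which lay between the knockout values (-0.06, 95% interval -0.29 to 0.16). Srebf1, whose product mainly drives fatty acid genes, was read at 6.93 and 7.20 against 7.22 and 7.23 (-0.16, SE 0.11, limma adjusted p = 0.513); its groups were apart by a small margin. Scap, the escort, was read at 7.53 and 7.63 against 7.55 and 7.65, with overlap (-0.02, 95% interval -0.23 to 0.19). The signs of Srebf2 and Scap turned without knockout array 1 and after a repeated quantile normalization.

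The INSIG genes, of which Insig1 is itself a target of SREBP, gave differences of unlike size. Insig1 was read at 6.95 and 7.50 in the knockout and at 7.73 and 7.66 in the wild type, 1.38-fold lower, with the widest gap between the knockout arrays (SD 0.39, against 0.05 in the wild type) and a limma adjusted p of 0.164 (-0.47, SE 0.15). From knockout array 2 alone the difference was -0.20, and from knockout array 1 alone -0.74. Insig2 was read at 6.48 and 6.75 against 6.71 and 6.69, with overlap (-0.08, 95% interval -0.33 to 0.16). Whether the genes differ in their response was not tested. Stard4, which carries cholesterol between membranes, was read at 6.70 and 6.79 against 6.91 and 6.99, with groups that did not overlap (-0.21, SE 0.09, limma adjusted p = 0.315).

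Of the 8 genes of the fatty acid branch, 7 had a fold change below 0 (as had 64.8% of the brighter genes). In 4 of them both knockout arrays were lower, as in 38.8% of the brighter genes. Fads1, which places a double bond in polyunsaturated fatty acids, was read at 7.36 and 7.63 in the knockout and at 7.82 and 7.77 in the wild type, without overlap (-0.30, SE 0.11, limma adjusted p = 0.209). Fads2, a desaturase of the same route, differed by -0.06 with overlapping groups. Acly, which frees acetyl-CoA from citrate in the cytosol, differed by -0.18 (limma adjusted p = 0.390), and Fasn, the fatty acid synthase, by -0.09 (limma adjusted p = 0.683), with a 95% interval of -0.30 to 0.12. Acaca, the carboxylase that makes malonyl-CoA, differed by -0.17 with overlapping groups. Its dimmer probe set was read at 5.02 and 5.30 in the knockout and at 5.52 and 5.56 in the wild type, without overlap. That probe set differed by -0.38 (limma adjusted p = 0.340 with all probe sets tested singly). The stearoyl-CoA desaturases Scd1 (-0.11) and Scd2 (-0.16) are paralogs, and whether the probes of one bind the transcript of the other was not tested. Elovl6, which lengthens palmitate, lay on the other side: 6.60 and 6.72 in the knockout against 6.58 and 6.39 (0.18, SE 0.10, limma adjusted p = 0.440), with groups that did not overlap.

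Of the exporters, Abca1 was read at 5.72 and 5.86 in the knockout and at 5.46 and 5.57 in the wild type, so both knockout arrays were higher (0.27, SE 0.10, limma adjusted p = 0.199). It kept that sign under every alternative run here, between 0.19 and 0.34, and passed under none. Abcg1, the other exporter, was read at 7.59 and 7.88 against 7.75 and 7.83, with overlap (-0.05, 95% interval -0.30 to 0.19).

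**Figure D4:**
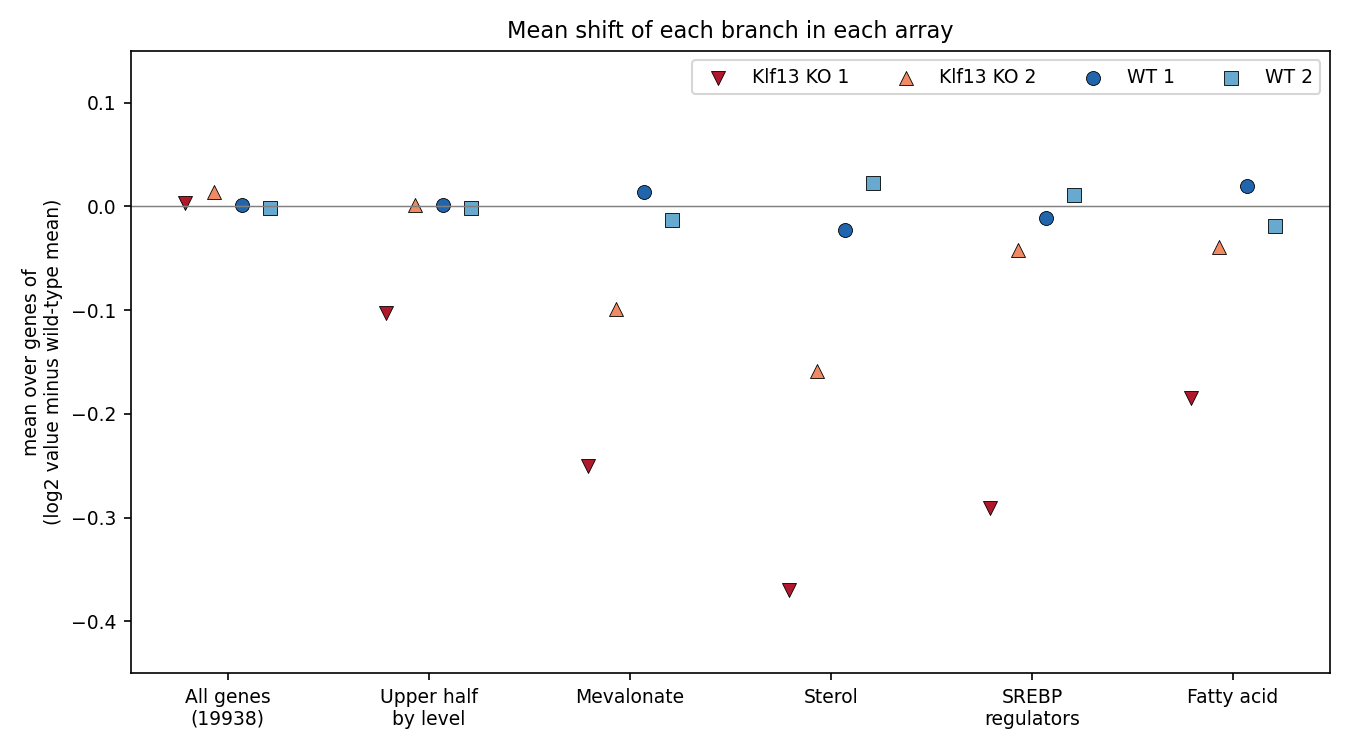
Mean over the genes of a group of the log2 value minus the gene's wild-type mean, for each array; red triangles are the knockout arrays and blue symbols the wild-type arrays. Over the sterol branch the means are -0.37 and -0.16 in knockout arrays 1 and 2 and -0.02 and 0.02 in the wild-type arrays, while over the 9969 brighter genes they are -0.10 and 0.001 in the knockout.

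By array, the mean distance of the mevalonate genes from the wild type was -0.25 in knockout array 1 and -0.10 in knockout array 2. For the sterol genes it was -0.37 and -0.16, for the regulators -0.29 and -0.04, and for the fatty acid genes -0.18 and -0.04. Knockout array 1 thus carried the larger part in each branch, as it did among the brighter genes (-0.10 and 0.001). Without it, the medians were -0.12 for the mevalonate branch, -0.13 for the sterol branch, -0.07 for the fatty acid branch and 0.002 for the regulators. In that order, 5 of 7, 10 of 11, 6 of 8 and 3 of 6 genes were then below 0, where 48.0% of all genes were.

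Other genes of lipid metabolism were read from lists around these branches. Of 14 further genes of sterol and isoprenoid use, 13 had a fold change below 0 (as had 64.8% of the brighter genes). In 8 of them both knockout arrays were lower, as in 38.8% of the brighter genes. By limma 0 passed, and the median was -0.15. The smallest p was that of Rabggtb, a subunit of the enzyme that attaches geranylgeranyl chains to Rab GTPases, at 9.06 and 9.09 in the knockout against 9.42 and 9.38 (-0.33, limma adjusted p = 0.112), and its partner subunit Rabggta differed by -0.24. Nus1, a subunit of the enzyme that makes dolichol, differed by -0.18. The 10 genes of SREBP processing had a median of -0.04, 0 passed, and the coat protein Sec23a (0.21), the ubiquitin ligase Syvn1 (0.17) and Rnf145 (-0.10) had the smallest p. Of 16 genes of liver X receptor response and cholesterol handling, 0 passed and the median was -0.04, with Gramd1b (-0.21), Cyp27a1 (0.25) and Lpcat3 (-0.15) first by p. The log2 fold change of Cyp27a1, whose groups overlapped, ran from 0.050 to 0.46 with 1 array left out.

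Of 19 other genes of fatty acid synthesis and activation, 0 passed and the median was -0.05, with 9 genes lower and 4 higher in both knockout arrays. Among the brighter genes 38.8% were lower and 17% higher in both, and among all genes 23.2% and 24.4%. Hacd3 and Hacd2, dehydratases of the cycle that lengthens very long chains, were read lower in both knockout arrays (-0.36 and -0.35, limma adjusted p = 0.0798 and 0.0899), as was Mecr, a reductase of mitochondrial fatty acid synthesis (-0.36). Of 16 genes of glycerolipid synthesis 0 passed, the median was -0.01, and Agpat2 (0.35), Agpat5 (-0.28) and Pcyt1a (-0.20) came first by p. With 1 array left out, Agpat2 ran from 0.16 to 0.54 and Agpat5 from -0.40 to -0.17. Of 16 genes of fatty acid oxidation, 1 rose and 0 fell (1.19% and 1.05% of all genes did), and the median was 0.002. The gene that rose was Cpt1a, which loads fatty acids for import into mitochondria: it was read at 8.29 and 8.44 in the knockout and at 7.63 and 7.70 in the wild type, 1.62-fold higher (0.70, SE 0.10, limma adjusted p = 0.00573). The knockout values of Cpt1a were well above both wild-type values, and the call was lost when all probe sets of the table were tested singly (fold change 0.70). Acads (0.42) and Etfb (-0.29), other genes of that route, did not pass.

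**Figure D5:**
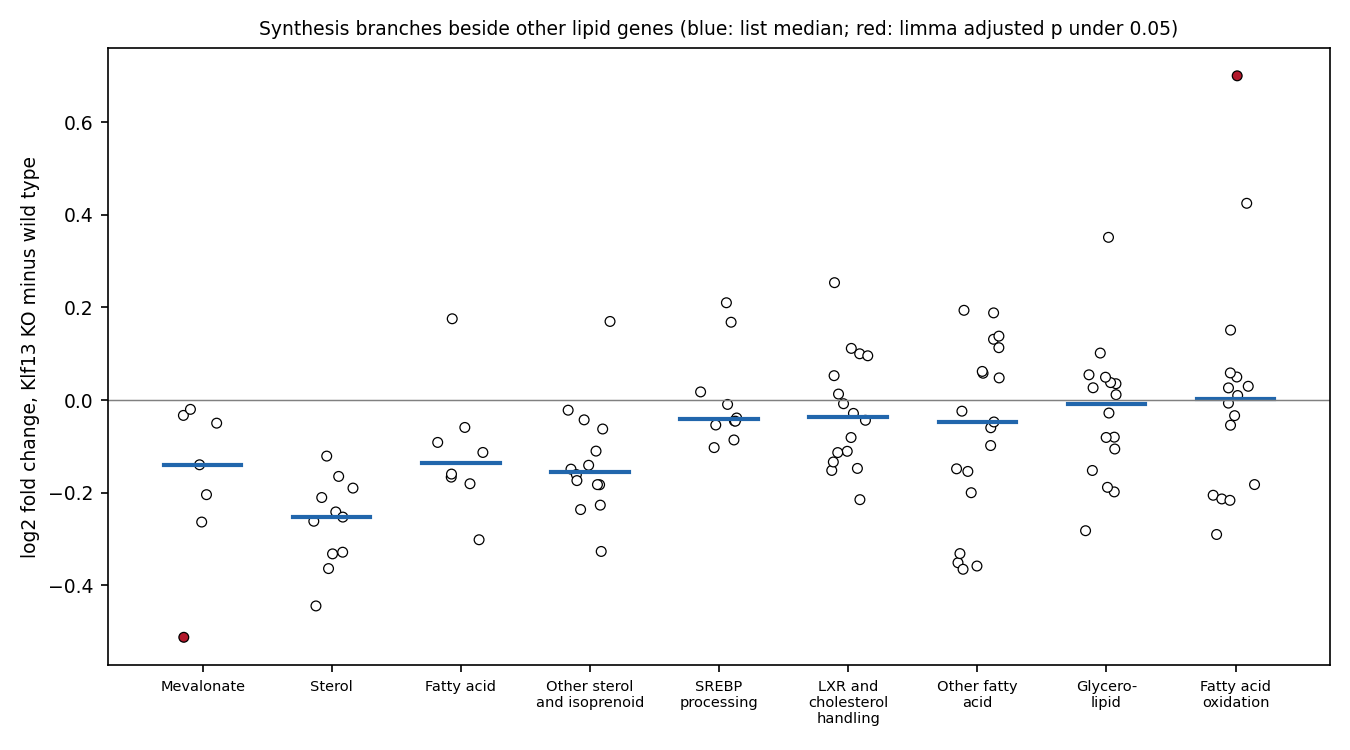
Log2 fold change of each gene of the synthesis branches and of the other lipid lists, knockout minus wild type; blue bars are list medians and filled points passed limma at an adjusted p under 0.05. The sterol median of -0.25 is the lowest, the oxidation median is 0.002, and Idi1 (-0.51) and Cpt1a (0.70) are the filled points.

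Markers of the sorted cells and of other cells were read on the same arrays. The 11 measured T cell and CD8 markers had mean levels of 9.50 and 9.56 in the knockout and 9.62 and 9.64 in the wild type. Of these, 0 were called, and Thy1 (-0.34), Cd2 (-0.19) and Zap70 (-0.18) had the smallest p. Both knockout arrays were lower in 5 of the 11, against 38.8% of the brighter genes. Both were higher in 2, Cd3e (0.07) and Cd3g (0.08), against 17%. The groups of Cd8a (-0.07) and Cd8b1 (-0.01) overlapped. Of 13 genes of dividing cells, all 13 fold changes were below 0 (as were 64.8% of the brighter genes) and 0 passed, with Hmmr (-0.41), Rrm2 (-0.34) and Ccne2 (-0.34) first. In 8 of the 13 both knockout arrays were lower (38.8% of the brighter genes). At an unadjusted limma p under 0.05, 5 of the 13 were lower (16.1% of the brighter genes). Their mean distance from the wild type was -0.22 in knockout array 1 and -0.11 in knockout array 2. Their mean levels were 7.807 and 7.917 against 8.047 and 7.997. Those means lay above the upper quartile of all genes in each array (6.76, 6.91, 6.92 and 6.92). Several lists of markers of other cells had members that rose, where 1.19% of all genes passed limma as higher and 1.05% as lower. Of 12 neutrophil markers, 4 rose and 0 fell, with mean levels of 4.71 and 4.66 in the knockout and 3.94 and 4.05 in the wild type. The 4 were Mpo (1.97), Elane (1.60), Ctsg (1.70) and Prtn3 (1.71). The rest did not pass, among them S100a8, S100a9, Camp and Retnlg, at mean levels of 3.23, 3.11, 3.83 and 3.20. Ly6g was the 1 marker of the list with a fold change below 0 (-0.12, mean level 2.65). Of 12 myeloid and dendritic markers 4 rose, led by Lyz2 (1.15), Csf1r (0.58) and Mpeg1 (0.84), at mean levels of 5.06 and 5.23 against 4.78 and 4.74, while Cd68 (-0.34) and Ctss (-0.18) of the same list, which did not pass, had both knockout arrays lower. Of 12 B cell markers 2 rose, Ighm (0.80) and Ly6d (0.64), and Cd79b differed by 0.51, at mean levels of 5.32 and 5.40 against 5.04 and 5.13. Of 6 genes of the exocrine pancreas 3 rose, Cpa1 (1.35), Ctrb1 (1.16) and Cel (0.63), at mean levels of 4.60 and 4.48 against 3.81 and 3.87.

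Of 7 adipocyte markers 0 passed, at mean levels of 3.53 and 3.36 against 3.39 and 3.36 (Cidec 0.18, Plin1 0.10 and Retn 0.10). Of 5 erythroid markers 0 passed (Tspo2 -0.44, Epb42 -0.31 and Slc4a1 0.18), at mean levels of 7.15 and 7.21 against 7.32 and 7.27. An array has no true zero, so no marker was called absent. The part of these cell types, of dividing cells and of knockout array 1 in the lower lipid genes was not tested, and in bulk samples fewer cells of a type and less RNA per cell cannot be told apart.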

How the data were processed

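The deposited values are log2 probe-set levels of 4 Affymetrix arrays; RMA and Partek are named, with no version, per the submitters' processing notes. Per the labels' protocols, 200 ng of RNA was amplified and biotin-labelled, and the genome build is not given in the sources used here. RMA, which compresses folds of dim genes, includes a step that equalises probe distributions, but over the 19938 genes the upper quartile was 6.76 in knockout array 1 and 6.91 to 6.92 in the others. The table held 35556 probe sets, of which GEO's platform annotation paired 21789 with 1 symbol and 1621 with several; 21698 of the former were matched by gene identifier to RefSeq names (GRCm38.p6), giving 19938 genes.

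Knockout and wild type were compared over all genes with limma 3.58.1 in R 4.3.3 (genotype as the only term, no filter on level, two-sided, Benjamini-Hochberg adjustment, threshold 0.05), after the fit had been checked on simulated data. Intervals are 95% intervals of that fit, whose prior degrees of freedom were 8.06; the number of arrays limits the precision. Errors are SE of the fit or SD over 2 arrays. Branches are described by counts and medians, with no test of a list. Every listed gene is named; array values are given for the regulators and for genes at an unadjusted p under 0.05, and up to 3 genes by p for each other list; further array values (Hmgcs1, Cyp51, Elovl6, Abcg1) were chosen after their values were seen. The genes, lists and motifs were chosen with earlier results of these data known. Alternatives were averaging the probe sets of a gene, all probe sets tested singly, the 9969 brighter genes alone, a repeated quantile normalization, median centring, robust moderation with a variance trend, a block for the replicate number, and each array left out.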

Additional observations from a re-analysis of the deposited data

How the results depend on the processing

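The 448 calls over all genes became 39 with all probe sets tested singly, 1088 with arrays centred on their median, 1187 with the replicate number as a block, 831 with a variance trend with robust moderation, and 264 to 1536 with 1 array left out. The 1 call among lipid genes became 0 with all probe sets and after a further quantile normalization, 5 after centring, 2 among the 9969 brighter genes, 3 with the variance trend, 4 with the replicate block, and 0 to 8 with 1 array left out; it was 0 without knockout replicate 1, wild-type replicate 1 or wild-type replicate 2. Idi1, Fdft1, Msmo1 and Insig1 were the 4 under the block, but deviations of arrays with the same number correlated at 0.007, so the numbers were not taken to pair the samples.

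The mevalonate median was -0.23 after centring and -0.065 after quantile normalization, and -0.18 to -0.10 with 1 array left out. The fatty acid median was -0.22 after centring and -0.22 to -0.070 with 1 array left out, the sterol median -0.35 to -0.13, and that of the regulators -0.24 to 0.0015, turning without knockout replicate 1; the regulators were at -0.21 after centring and -0.036 after quantile normalization.

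After quantile normalization the sign turned for Hmgcs1 (0.048), Srebf2 (0.014), Scap (0.058), Fads2 (0.026) and Abcg1 (0.025). With 1 array left out, fold changes that turned ran from -0.18 to 0.11 (Hmgcs1), -0.070 to 0.030 (Mvk), -0.16 to 0.065 (Pmvk), -0.28 to 0.038 (Cyp51), -0.17 to 0.044 (Srebf2), -0.073 to 0.030 (Scap), -0.22 to 0.056 (Insig2), -0.28 to 0.050 (Scd1), -0.19 to 0.073 (Fads2), -0.20 to 0.086 (Abcg1) and -0.11 to 0.32 (Plin1). Of the 34 lipid genes, 15 kept their sign and their side of the threshold under all 11 alternatives. Those 15 do not include Idi1, and none of them was called in the main fit. Several alternatives leave a fold change as it was or move all of them down alike, so they could not turn a sign below 0. The cause of the changes between alternatives was not tested.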
